A study of Danio rerio with 48 samples.

Results

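The change that whole wild-type zebrafish embryos went through between 36 and 48 hours post fertilisation (hpf) was measured by setting 9 single embryos at 48 hpf against 8 single embryos at 36 hpf, 17 of the 48 libraries in all. All 17 were noc2l +/+ embryos of the RIKEN WT strain from 1 family that carries the agu79 allele of noc2l, a gene whose yeast homologue acts in ribosome assembly, and they were chosen by the genotype and age in their titles. Their noc2l -/- relatives, 7 embryos at 48 hpf and 9 at 36 hpf, and 6 noc2l +/+ embryos at 24 hpf serve to show where this change differs. These and 9 noc2l -/- embryos at 24 hpf also enter the shared filter, scaling and estimate of spread. All fish were kept near 28 °C under a light-dark cycle, and no embryo is labelled as treated. The lesion of the allele is not stated. Every embryo comes from 1 family, and p-values concern embryos of that family.

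In zebrafish this window is the passage from the pharyngula period into hatching. Proteases secreted by the hatching gland digest the chorion, progenitors in the brain and retina leave the cell cycle and become neurons, lens fibre cells fill with crystallins, and the first cartilages and bones begin to form. The heart already beats and embryonic red cells already circulate when it starts, and the yolk still feeds the embryo when it ends.

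Libraries were made by Lasy-Seq, which reads the 3′ ends of polyadenylated RNA, 1 library per embryo, so counts do not scale with transcript length. Levels are counts scaled to 1000000 per library (CPM), and a level written as a range runs over the embryos of a group. Total counts ran from 1954872 to 10141350 at 48 hpf (9 embryos), against 4744074 to 6832234 at 36 hpf (8 embryos), and no difference in totals or in genes detected passed an exact two-sided permutation test (adjusted p = 0.814 for each). Embryo 9 of the 48 hpf group stood apart: it was the shallowest, had the lowest mean correlation with its group (0.896, the next being 0.914), and lay at −110.6 on the second principal component where the other 48 hpf embryos lay between 6.51 and 16.03. For some of the gene lists below, counts are also given without it, in a fit that also leaves out 2 shallow libraries of 24 hpf embryos. In that fit the counts of the other lists moved by at most 2 genes in either direction. noc2l itself had 5.71 to 22.7 CPM (median 13.2) at 48 hpf, against 6.70 to 23.4 CPM (median 15.7) at 36 hpf. noc2l changed by −0.19 ± 0.29 on the log2 scale (adjusted p = 0.76), and the groups overlapped, so its level did not pass the test between these ages.

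**Figure D1:**
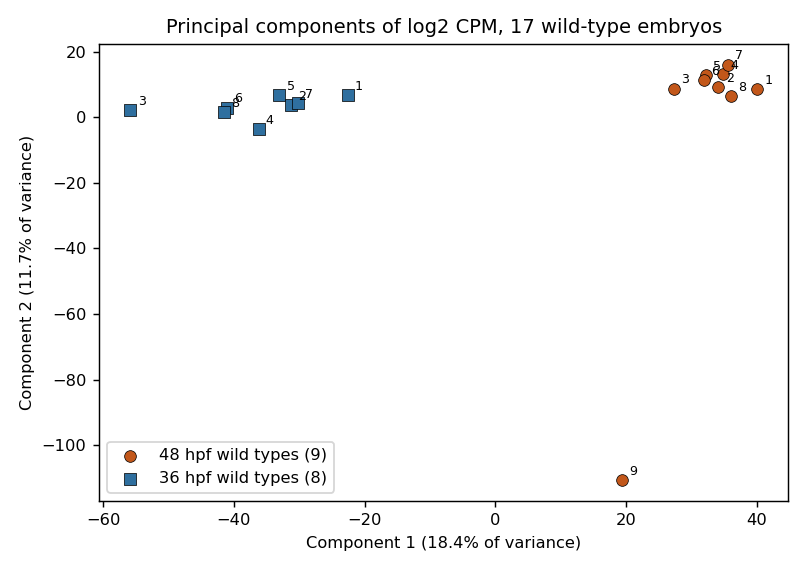
Each point is 1 wild-type embryo (48 hpf as circles, 36 hpf as squares, numbered within the group), placed by the first 2 principal components of log2 CPM over all tested genes, which carry 18.4% and 11.7% of the variance. The ages separate on the first component, and embryo 9 of the 48 hpf group lies far below the rest on the second.

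Of 16431 genes tested, 2384 (14.5%) passed an adjusted p of 0.05 in edgeR's quasi-likelihood test, 1112 (6.77%) higher and 1272 (7.74%) lower at 48 hpf. Which direction held more genes depended on the scaling and the tool: RLE scaling called 1245 higher and 1124 lower, upper-quartile scaling 1198 higher and 1174 lower, DESeq2 1425 higher and 1242 lower, and limma voom 1446 higher and 1369 lower. The rises were larger than the falls: 488 genes rose and 192 fell by more than 2-fold, 149 rose and 34 fell by more than 4-fold, and the median log2 change was 0.92 among the genes that rose and −0.61 among those that fell. In 621 genes (3.78%) the ages did not overlap in any embryo, 307 (1.87%) with every 48 hpf embryo above every 36 hpf embryo and 314 (1.91%) with every one below. Log2 changes are given with their standard error, and the median log2 change over all genes was 0.01. Beside them stands how many of the 9 embryos at 48 hpf lay outside the range of the 8 at 36 hpf. Because whole embryos were measured, fewer cells of a type and less RNA per cell cannot be told apart, and a share of the RNA can fall because other RNAs grew.

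The largest rises of well expressed genes included members of the lens, muscle, bone, and photoreceptor and pineal lists. The 12 largest, among named genes with at least 10 CPM, included 6 gamma-M crystallins, and ifitm5 and col10a1a of bone-forming cells. With them were ampd1, which encodes the AMP deaminase of skeletal muscle, and s100a10a, whose mammalian homologue partners annexin A2. The rest were otx5 of photoreceptors and gnb3a, a G protein beta subunit gene of the photoreceptor and pineal list. ampd1 had 32 to 76.6 CPM (median 42.5) at 48 hpf, against 0.213 to 2.56 CPM (median 1.16) at 36 hpf. ampd1 values at 48 hpf lay above all those at 36 hpf, with a log2 change of 5.12 ± 0.41 (adjusted p = 6.70e-14). The smallest p among the rises belonged to ppp1r14c, which encodes an inhibitor of protein phosphatase 1, at 75.3 to 104.8 CPM (median 86.0) at 48 hpf, against 20.3 to 27.03 CPM (median 24.4) at 36 hpf. ppp1r14c rose by 1.87 ± 0.14 on the log2 scale (adjusted p = 7.90e-18), with 9 of 9 embryos above the 36 hpf range.

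Among genes with at least 10 CPM and an established symbol, the largest falls were those of mapk12b, a p38-type kinase, the hatching gland protease genes ctslb and he1.2, and the embryonic globin gene hbbe3. hbbe3 had the smallest p of the whole comparison, at 448 to 940.1 CPM (median 632) at 48 hpf, against 2205 to 3138 CPM (median 2553) at 36 hpf. hbbe3 was separate between the ages, every 48 hpf embryo lying below, at a log2 change of −1.99 ± 0.11 (adjusted p = 1.01e-21). mapk12b had 1.39 to 10.51 CPM (median 3.77) at 48 hpf, against 17.2 to 47.3 CPM (median 24.5) at 36 hpf. mapk12b values at 48 hpf lay below all those at 36 hpf, with a log2 change of −2.63 ± 0.24 (adjusted p = 1.12e-12). Among the other falls of this rank were those of ptprna, a receptor-type phosphatase of secretory granules (log2 change −1.70 ± 0.17), acp5a, tartrate-resistant acid phosphatase (log2 change −1.52 ± 0.17), nkx2.9, a homeobox factor (log2 change −1.69 ± 0.29), and nr0b2a, an orphan nuclear receptor (log2 change −1.59 ± 0.29). egln3, a prolyl hydroxylase that marks hypoxia-inducible factors for breakdown, ranked with them at 1.57 to 8.596 CPM (median 2.84) at 48 hpf, against 1.49 to 36.2 CPM (median 8.79) at 36 hpf, with groups that overlapped. Its adjusted p of 0.0173 became 0.0862 without embryo 1 of the 36 hpf group and 0.0607 with limma voom. With the libraries of these groups alone and the replicate number as a block, it was 0.158 in edgeR.

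**Figure D2:**
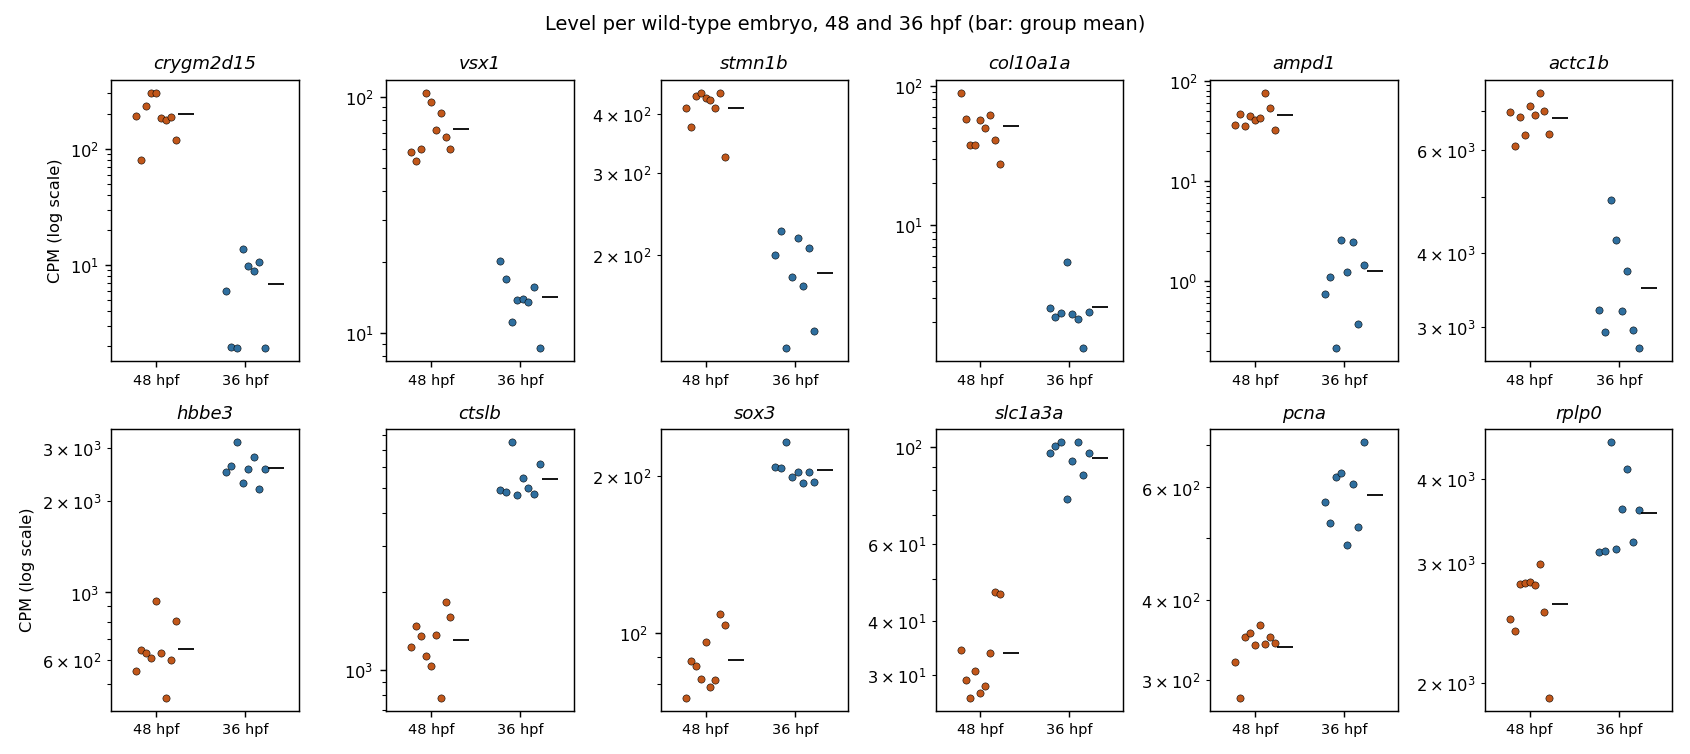
CPM on a log axis in each wild-type embryo for 6 genes that rose (top row) and 6 that fell (bottom row), 48 hpf left of 36 hpf, with the group mean as a bar. In each of the 12 panels the 2 ages do not overlap.

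Genes were then read by 46 lists of tissue markers and core processes. For each list the counts below cover the members that passed the filter on low counts, and stand beside 6.77% higher and 7.74% lower over all genes tested. The number of entries in the table is given for some lists only. A member could pass the filter through the age at which it is high. Lists are described by these counts and were given no test of their own. Besides the members picked by a rule on size and p, some members were named after their values were seen.

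**Figure D3:**
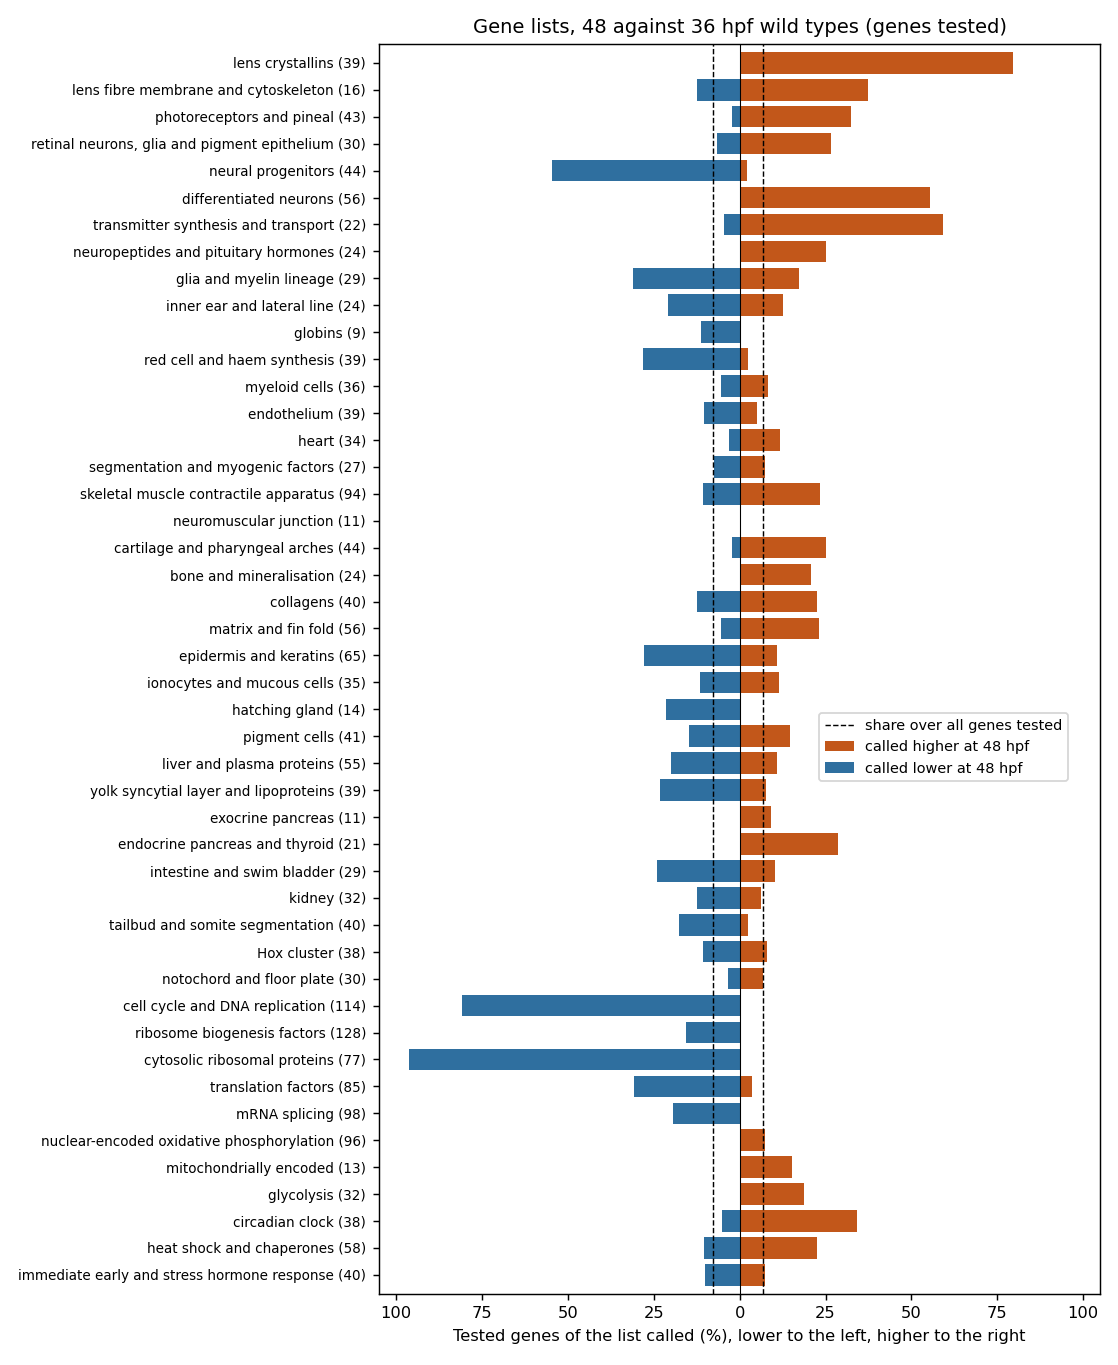
For each of 46 gene lists, the bars give the percentage of its tested members called higher (right) and lower (left) at 48 hpf, with the number tested in parentheses and the shares over all genes as dashed lines. Lens crystallins and neuronal genes lie far to the right, and ribosomal proteins, cell cycle genes and neural progenitor genes far to the left.

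The lens list rose furthest of the 46. Crystallins, the soluble proteins that fill lens fibre cells, passed the filter in 39 of 56 entries, of which 31 rose and 0 fell, with a median log2 change of 2.37. Their summed level was 10380 to 19200 CPM (median 13630) at 48 hpf, against 1658 to 3926 CPM (median 2930) at 36 hpf. The groups of that sum did not overlap. crygm2d11 had 27.7 to 131 CPM (median 59.4) at 48 hpf, against 0.426 to 4.35 CPM (median 2.07) at 36 hpf. crygm2d11 rose by 4.89 ± 0.36 on the log2 scale (adjusted p = 5.39e-15), with 9 of 9 embryos above the 36 hpf range. crygm2d15 had 79.5 to 306 CPM (median 187) at 48 hpf, against 1.91 to 13.8 CPM (median 7.44) at 36 hpf. crygm2d15 was separate between the ages, every 48 hpf embryo lying above, at a log2 change of 4.84 ± 0.42 (adjusted p = 8.39e-12). The most abundant of those named, crygm2d17, had 1123 to 2034 CPM (median 1409) at 48 hpf, against 81.9 to 441 CPM (median 291) at 36 hpf. crygm2d17 values at 48 hpf lay above all those at 36 hpf, with a log2 change of 2.35 ± 0.32 (adjusted p = 2.52e-07). Gamma-M crystallins are near-identical copies whose reads the counting could divide, so the values of single copies are uncertain. cryaa, the alpha crystallin that also acts as a chaperone, had a median of 12.2 CPM at 48 hpf, against 2.68 CPM at 36 hpf (log2 change 2.05 ± 0.34).

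Lens fibre membrane and cytoskeleton genes moved less evenly, with 6 rises and 2 falls among 16 of 23 entries. The membrane protein gene lim2.5 had 7.66 to 15.4 CPM (median 12.6) at 48 hpf, against 0 to 4.84 CPM (median 0.924) at 36 hpf. lim2.5 rose by 3.13 ± 0.58 on the log2 scale (adjusted p = 5.46e-05), with 9 of 9 embryos above the 36 hpf range. Its relatives lim2.4 and lim2.3 rose by 0.77 and 0.76 on the log2 scale. mipa, which encodes the fibre cell water channel, went the other way at 11.9 to 32 CPM (median 18.7) at 48 hpf, against 20.7 to 54.8 CPM (median 32.2) at 36 hpf. mipa fell by 0.86 ± 0.26 on the log2 scale (adjusted p = 0.0181), with 6 of 9 embryos below the 36 hpf range, a call lost with 6 embryos a group. foxe3, a factor of the proliferating lens epithelium, also fell, with 0 to 2.31 CPM at 48 hpf and 0 to 6.82 CPM at 36 hpf. foxe3 fell by 2.15 ± 0.65 on the log2 scale (adjusted p = 0.0149), and the groups overlapped.

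Photoreceptor and pineal genes passed the filter in 43 of 70 entries, of which 14 rose and 1 fell, with a median log2 change of 0.64. Of the photoreceptor transcription factors, otx5 had 4.78 to 23.98 CPM (median 13.7) at 48 hpf, against 0 to 4.097 CPM (median 1.12) at 36 hpf. otx5 rose by 3.21 ± 0.56 on the log2 scale (adjusted p = 3.13e-05), with 9 of 9 embryos above the 36 hpf range. crx had a median of 11.01 CPM at 48 hpf, against 3.34 CPM at 36 hpf (log2 change 1.84 ± 0.32). nr2e3, which favours rods, rose by 2.098 ± 0.43 and neurod1 by 1.36 ± 0.15. neurod1 also stood in the endocrine list, and which cells its rise came from was not tested. Of the phototransduction cascade, pde6gb, a subunit of the photoreceptor phosphodiesterase, had a median of 21.5 CPM at 48 hpf, against 6.56 CPM at 36 hpf (log2 change 1.80 ± 0.27). gnb3a, a G protein beta subunit gene of the same list, had 0.471 to 33.1 CPM (median 15.5) at 48 hpf, against 0 to 2.90 CPM (median 1.32) at 36 hpf. Which cells its rise came from was not tested. gnb3a rose by 3.58 ± 0.58 on the log2 scale (adjusted p = 8.24e-06), with 8 of 9 embryos above the 36 hpf range, where embryo 9 alone at 48 hpf stayed within the 36 hpf range. sagb, an arrestin, had 1.41 to 8.97 CPM (median 6.04) at 48 hpf, against 0 to 1.04 CPM (median 0.311) at 36 hpf. sagb values at 48 hpf lay above all those at 36 hpf, with a log2 change of 3.88 ± 0.61 (adjusted p = 1.28e-06). The rod opsin gene rho held 149 counts over the 9 embryos at 48 hpf and 1 count over the 8 at 36 hpf. Divided by the summed scaled library totals of each group, these gave a ratio of 120.4, with an exact 95% counting interval of 21.3 to 4785. rbp4l, a retinol-binding protein gene, was the 1 that fell, at 20.2 to 50.04 CPM (median 33.05) at 48 hpf, against 43.3 to 118 CPM (median 92.1) at 36 hpf. rbp4l fell by 1.45 ± 0.21 on the log2 scale (adjusted p = 1.22e-06), with 8 of 9 embryos below the 36 hpf range.

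In the rest of the retina, 8 of 30 tested markers rose and 2 fell. Among those that rose, vsx1, of bipolar cells, had 53.4 to 104 CPM (median 67.2) at 48 hpf, against 8.61 to 20.2 CPM (median 13.9) at 36 hpf. vsx1 was separate between the ages, every 48 hpf embryo lying above, at a log2 change of 2.36 ± 0.19 (adjusted p = 3.40e-15). pou4f2, of ganglion cells, had a median of 25.8 CPM at 48 hpf, against 5.25 CPM at 36 hpf (log2 change 2.29 ± 0.24). bhlhe23 rose by 3.04 ± 0.48. Among those that fell, rx1, a factor of retinal progenitors, had 2.92 to 10.22 CPM (median 6.04) at 48 hpf, against 11.1 to 24.3 CPM (median 14.5) at 36 hpf. rx1 values at 48 hpf lay below all those at 36 hpf, with a log2 change of −1.38 ± 0.21 (adjusted p = 7.35e-07). atoh7, which starts ganglion cell formation, had 9.99 to 28.2 CPM (median 15.8) at 48 hpf, against 4.26 to 55.8 CPM (median 36.1) at 36 hpf, and its change did not pass the test. atoh7 changed by −0.83 ± 0.44 on the log2 scale (adjusted p = 0.232), and the groups overlapped. The 36 hpf embryos spread over the whole span of both ages in that gene.

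In the nervous system, progenitor transcripts fell and neuronal transcripts rose. Of the neural progenitor list, 44 of 46 entries were tested, 24 fell and 1 rose, with a median log2 change of −0.44. sox3, a factor that keeps progenitors undifferentiated, had 75.2 to 109 CPM (median 86.6) at 48 hpf, against 194 to 232 CPM (median 203) at 36 hpf. sox3 was separate between the ages, every 48 hpf embryo lying below, at a log2 change of −1.21 ± 0.11 (adjusted p = 2.57e-14). The falls included members of the Notch pathway: the ligand dld had a median of 24.3 CPM at 48 hpf, against 69.0 CPM at 36 hpf (log2 change −1.31 ± 0.12), the receptor notch1a changed by −1.38 ± 0.19, and the target repressors her8a and her15.1 by −1.44 ± 0.12 and −0.82 ± 0.13. nes, the intermediate filament nestin, changed by −0.98 ± 0.11 and sox19a by −0.997 ± 0.11. sox2 fell less, at 44.7 to 82.8 CPM (median 55.5) at 48 hpf, against 56.2 to 83.4 CPM (median 72.2) at 36 hpf. sox2 fell by 0.33 ± 0.12 on the log2 scale (adjusted p = 0.0463), with 5 of 9 embryos below the 36 hpf range, and its call was lost under both other scalings and in 9 of the 17 fits that left out 1 embryo. The single rise was that of fabp7a, a fatty acid-binding protein gene of radial glia, at 801 to 1158 CPM (median 966) at 48 hpf, against 193 to 534 CPM (median 442) at 36 hpf. fabp7a rose by 1.24 ± 0.29 on the log2 scale (adjusted p = 0.00157), with 9 of 9 embryos above the 36 hpf range.

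Differentiated neuron genes rose in 31 of 56 tested members and fell in none, with a median log2 change of 0.61, and their summed level was 3984 to 5186 CPM (median 4640) at 48 hpf, against 2653 to 3560 CPM (median 3181) at 36 hpf. stmn1b, a microtubule regulator of young neurons, had 324 to 444 CPM (median 429) at 48 hpf, against 126 to 225 CPM (median 189.7) at 36 hpf. stmn1b was separate between the ages, every 48 hpf embryo lying above, at a log2 change of 1.17 ± 0.11 (adjusted p = 3.85e-13). gng3, a neuronal G protein subunit, had a median of 151 CPM at 48 hpf, against 62.2 CPM at 36 hpf (log2 change 1.15 ± 0.11). The synaptic vesicle fusion gene snap25b rose by 1.80 ± 0.20, the growth cone gene gap43 by 1.17 ± 0.16 and the RNA-binding protein gene elavl4 by 1.06 ± 0.12. elavl3, which marks neurons from their birth, had 42.02 to 101.2 CPM (median 68.1) at 48 hpf, against 41.6 to 99.1 CPM (median 62.2) at 36 hpf and did not pass the test. elavl3 changed by −0.02 ± 0.14 on the log2 scale (adjusted p = 0.957), and the groups overlapped.

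Genes of transmitter synthesis and transport rose in 13 of 22 tested members, out of 40 entries, across inhibitory, excitatory and cholinergic classes. slc6a5, the glycine transporter of glycinergic neurons, had 22.6 to 35.8 CPM (median 28.7) at 48 hpf, against 7.17 to 15.8 CPM (median 13.1) at 36 hpf. slc6a5 rose by 1.23 ± 0.18 on the log2 scale (adjusted p = 1.70e-07), with 9 of 9 embryos above the 36 hpf range. gad2, which makes GABA, had a median of 26.9 CPM at 48 hpf, against 13.4 CPM at 36 hpf (log2 change 1.09 ± 0.18). The GABA transporter gene slc6a1b rose by 1.24 ± 0.20, the glutamate receptor gene gria2b by 1.80 ± 0.31, the vesicular glutamate transporter gene slc17a6b by 0.66 ± 0.18 and chata, which makes acetylcholine, by 1.11 ± 0.33. hdc, which makes histamine, fell by 0.90 ± 0.20. Of the neuropeptide and pituitary hormone list, 24 of 42 entries were tested and 6 rose, with a median log2 change of 0.67. pmchl, a melanin-concentrating hormone gene, had 96 counts over the 48 hpf embryos and none over the 36 hpf embryos, at least 25.9-fold higher against a floor of 3 counts over the group. oxt, the oxytocin precursor gene, had 0.178 to 2.82 CPM (median 1.91) at 48 hpf, against 0 to 0.445 CPM (median 0) at 36 hpf. oxt rose by 3.997 ± 0.88 on the log2 scale (adjusted p = 0.000487), with 8 of 9 embryos above the 36 hpf range. adcyap1b, which encodes a PACAP peptide precursor, had a median of 84.3 CPM at 48 hpf, against 49.1 CPM at 36 hpf (log2 change 0.81 ± 0.15).

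Glial genes went both ways, with 5 rises and 9 falls among 29 tested. Among those that fell, slc1a3a, a glial glutamate transporter, had 26.6 to 46.5 CPM (median 30.7) at 48 hpf, against 76.3 to 103 CPM (median 97.1) at 36 hpf. slc1a3a values at 48 hpf lay below all those at 36 hpf, with a log2 change of −1.51 ± 0.13 (adjusted p = 2.54e-15). gfap changed by −0.41 ± 0.10. plp1a, a myelin proteolipid gene, also fell, at a median of 65.8 CPM at 48 hpf, against 162 CPM at 36 hpf (log2 change −1.15 ± 0.12). olig1 of the oligodendrocyte lineage held 98 counts at 48 hpf and 3 counts at 36 hpf, a ratio of 26.4 with an exact 95% counting interval of 8.77 to 130. olig4 and mpz of the same list fell by 1.09 and 1.93 on the log2 scale. The neuronal and glial membrane protein gene gpm6ab rose by 0.97 ± 0.12.

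In the ear and lateral line list, 3 of 24 tested genes rose and 5 fell. s100t, a calcium-binding protein gene of hair cells, had a median of 41.2 CPM at 48 hpf, against 15.03 CPM at 36 hpf (log2 change 1.46 ± 0.20), and stm, an otolith matrix gene, rose by 0.76 ± 0.14. oc90, another otolith matrix gene, had a median of 6.75 CPM at 48 hpf, against 15.8 CPM at 36 hpf (log2 change −1.37 ± 0.22), and the hair cell determination factor atoh1a fell by 1.21 ± 0.21.

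Proliferation genes fell as a body. Of 114 tested cell cycle and DNA replication genes, 92 fell and none rose, with a median log2 change of −0.62, and without embryo 9 the count was 94. pcna, the sliding clamp of DNA polymerase, had 281 to 366 CPM (median 343) at 48 hpf, against 488 to 706 CPM (median 589) at 36 hpf. pcna fell by 0.79 ± 0.09 on the log2 scale (adjusted p = 7.83e-10), with 9 of 9 embryos below the 36 hpf range. ccnd1, the cyclin that starts the passage into S phase, had 83.1 to 144 CPM (median 92.1) at 48 hpf, against 161 to 187 CPM (median 176) at 36 hpf. ccnd1 was separate between the ages, every 48 hpf embryo lying below, at a log2 change of −0.85 ± 0.09 (adjusted p = 2.93e-11). mcm4, a subunit of the replicative helicase, had a median of 57.0 CPM at 48 hpf, against 104 CPM at 36 hpf (log2 change −0.94 ± 0.10). nasp, a histone chaperone gene, changed by −0.85 ± 0.09, rrm1, of deoxynucleotide synthesis, by −0.95 ± 0.13 and dnmt1, the maintenance DNA methyltransferase gene, by −0.99 ± 0.13. shmt1, an enzyme gene of one-carbon metabolism, had 25.4 to 49.4 CPM (median 43.6) at 48 hpf, against 86.4 to 143 CPM (median 104) at 36 hpf. shmt1 values at 48 hpf lay below all those at 36 hpf, with a log2 change of −1.39 ± 0.11 (adjusted p = 9.36e-16). paics, atic and gart, which build the purine ring, changed by −0.95, −0.87 and −1.67. Purine synthesis also feeds the pigment of iridophores and xanthophores, and these 3 stood in the pigment list.

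Cytosolic ribosomal protein genes had the highest share of falls of the 46 lists: 74 of 77 tested genes passed the test downwards and none upwards, with a median log2 change of −0.44. Their summed level was 119500 to 180600 CPM (median 160400) at 48 hpf, against 188400 to 264100 CPM (median 206900) at 36 hpf. The groups of that sum did not overlap. rplp0 had 1901 to 2991 CPM (median 2790) at 48 hpf, against 3119 to 4524 CPM (median 3410) at 36 hpf. rplp0 fell by 0.45 ± 0.10 on the log2 scale (adjusted p = 0.000336), with 9 of 9 embryos below the 36 hpf range and its lowest value being that of embryo 9. rps12 had a median of 2442 CPM at 48 hpf, against 3340 CPM at 36 hpf (log2 change −0.55 ± 0.09). rpl22l1, 1 of the 3 that missed the threshold, changed by −0.53 ± 0.20 (adjusted p = 0.0673). Another of the 3 had the highest log2 change of the list, 0.97. Without embryo 9 the count was again 74, with a median of −0.41. When only changes beyond 1.5-fold were tested, 388 genes over the whole comparison passed.

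Other parts of the gene expression machinery fell in smaller shares. Translation factors fell in 26 and rose in 3 of 85 tested genes; the elongation factor gene eef2b had a median of 864 CPM at 48 hpf, against 1237 CPM at 36 hpf (log2 change −0.62 ± 0.10). Ribosome biogenesis factors, the class to which noc2l belongs, fell in 20 of 128 and rose in none, with a median of −0.20. ncl, nucleolin, had 183 to 260.3 CPM (median 234) at 48 hpf, against 262 to 395 CPM (median 296) at 36 hpf. ncl was separate between the ages, every 48 hpf embryo lying below, at a log2 change of −0.38 ± 0.09 (adjusted p = 0.000806). nop58 and fbl, core proteins of box C/D snoRNPs, changed by −0.47 and −0.32. Splicing genes fell in 19 of 98, and in 25 without embryo 9, where 1 rose. hnrnpa1b had a median of 278 CPM at 48 hpf, against 447 CPM at 36 hpf (log2 change −0.79 ± 0.10). Which of these lists differ in how often their genes fell was not tested.

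In the 3 lists of energy metabolism, the genes that passed the test rose. Nuclear-encoded oxidative phosphorylation genes rose in 7 of 96 tested members (7.29%), a share near the 6.77% higher over all genes. None of them fell, and 10 rose without embryo 9. The 13 mitochondrially encoded genes were all tested and 2 rose; mt-atp6 had 5082 to 7356 CPM (median 6941) at 48 hpf, against 4278 to 6081 CPM (median 4962) at 36 hpf. mt-atp6 rose by 0.43 ± 0.11 on the log2 scale (adjusted p = 0.00385), with 7 of 9 embryos above the 36 hpf range. The other rise, that of mt-nd5, lost its call under 9 of 27 alternatives. Over embryos, all mitochondrially encoded entries took 5.56% ± 0.463 of counts at 48 hpf (SD, n = 9), against 4.76% ± 0.406 at 36 hpf (SD, n = 8; exact permutation test over 4 library measures, adjusted p = 0.0122). Glycolysis genes rose in 6 of 32: the pyruvate kinase gene pkmb had 155 to 238 CPM (median 181) at 48 hpf, against 55.8 to 99.2 CPM (median 85.2) at 36 hpf. pkmb rose by 1.21 ± 0.15 on the log2 scale (adjusted p = 1.55e-08), with 9 of 9 embryos above the 36 hpf range. pgam1b and gapdhs rose by 0.90 and 0.68, whereas gapdh changed by 0.09 ± 0.08 and did not pass.

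Skeletal muscle grew in its share of RNA. The contractile apparatus list summed to 69100 to 92580 CPM (median 77000) at 48 hpf, against 40730 to 64870 CPM (median 54450) at 36 hpf, and 22 of 94 tested members rose while 10 fell. Among those that rose, actc1b, an alpha actin gene, had 6107 to 7529 CPM (median 6901) at 48 hpf, against 2755 to 4938 CPM (median 3197) at 36 hpf. actc1b was separate between the ages, every 48 hpf embryo lying above, at a log2 change of 0.96 ± 0.16 (adjusted p = 1.38e-05). pvalb2, the calcium buffer parvalbumin, had a median of 12110 CPM at 48 hpf, against 6730 CPM at 36 hpf (log2 change 0.87 ± 0.15). The titin genes ttn.1 and ttn.2, the muscle creatine kinase gene ckma and the fast troponin T gene tnnt3b rose by 0.95, 1.01, 0.85 and 0.91. Within 1 gene pair the members went opposite ways: tnni2b.2 had 62.1 to 161 CPM (median 112) at 48 hpf, against 19.3 to 38.6 CPM (median 28.8) at 36 hpf. tnni2b.2 values at 48 hpf lay above all those at 36 hpf, with a log2 change of 1.96 ± 0.22 (adjusted p = 3.72e-09). tnni2b.1 had 124 to 239 CPM (median 159.7) at 48 hpf, against 408 to 751 CPM (median 469) at 36 hpf. tnni2b.1 fell by 1.54 ± 0.16 on the log2 scale (adjusted p = 1.82e-10), with 9 of 9 embryos below the 36 hpf range. Both encode fast-type troponin I and are neighbouring copies by name, so reads could be divided between them. Falls included desma, the intermediate filament desmin (log2 change −0.80 ± 0.18), the small heat shock protein gene hspb1 (log2 change −1.03 ± 0.17) and acta1a (log2 change −0.62 ± 0.17).

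The factors that direct muscle formation moved less, with 2 rises and 2 falls among 27. myog had a median of 62.6 CPM at 48 hpf, against 34.6 CPM at 36 hpf (log2 change 0.75 ± 0.20), and myod1, which did not pass, had a median of 43.3 CPM at 48 hpf, against 39.99 CPM at 36 hpf (log2 change 0.21 ± 0.13). None of the 11 tested genes of the neuromuscular junction passed; chrna1, the acetylcholine receptor alpha subunit gene, changed by −0.20 ± 0.14. In the heart list, 4 of 34 rose and 1 fell. myl4, a myosin light chain gene, had 13.7 to 31.98 CPM (median 24.2) at 48 hpf, against 3.86 to 12.5 CPM (median 6.69) at 36 hpf. myl4 was separate between the ages, every 48 hpf embryo lying above, at a log2 change of 1.78 ± 0.30 (adjusted p = 1.23e-05). The main cardiac light chain gene myl7 had a median of 49.1 CPM at 48 hpf, against 52.2 CPM at 36 hpf and did not pass (log2 change −0.19 ± 0.12) and nppa changed by 0.10 ± 0.23.

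Skeletal genes included some of the steepest rises. In the bone list 5 of 24 tested genes rose and none fell. col10a1a, a collagen X chain gene that marks osteoblasts in zebrafish, had 27.3 to 89.7 CPM (median 49.9) at 48 hpf, against 1.304 to 5.46 CPM (median 2.32) at 36 hpf. col10a1a values at 48 hpf lay above all those at 36 hpf, with a log2 change of 4.29 ± 0.34 (adjusted p = 4.73e-14). ifitm5, a membrane protein gene of osteoblasts, had 11.7 to 24.4 CPM (median 14.1) at 48 hpf, against 0 to 0.878 CPM (median 0.479) at 36 hpf. ifitm5 rose by 5.01 ± 0.48 on the log2 scale (adjusted p = 3.85e-13), with 9 of 9 embryos above the 36 hpf range. entpd5a, needed for mineralisation in zebrafish, rose by 2.83 ± 0.76. sp7, the factor that defines osteoblasts, changed by 0.61 ± 0.35 and did not pass. In the cartilage list 11 of 44 rose and 1 fell, and 9 rose without embryo 9. matn1, a cartilage matrilin gene, held 278 counts at 48 hpf and 1 count at 36 hpf, a ratio of 225 with an exact 95% counting interval of 40.0 to 8901. fgfbp2b, whose product binds fibroblast growth factors, had a median of 60.4 CPM at 48 hpf, against 7.04 CPM at 36 hpf (log2 change 3.09 ± 0.23). col9a1a, a collagen IX chain gene, had 10.35 to 42.5 CPM (median 31.2) at 48 hpf, against 3.67 to 11.4 CPM (median 8.34) at 36 hpf. col9a1a rose by 1.85 ± 0.26 on the log2 scale (adjusted p = 2.68e-07), with 8 of 9 embryos above the 36 hpf range, with embryo 9 the lowest at 48 hpf and within the 36 hpf range.

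Of 40 tested collagen genes 9 rose and 5 fell, and 7 rose and 6 fell without embryo 9. Beside the cartilage and bone chains, the collagen VI genes col6a1, col6a2 and col6a3 rose by 0.45, 0.76 and 0.83, while col28a2a had a median of 82.7 CPM at 48 hpf, against 154 CPM at 36 hpf (log2 change −0.76 ± 0.11). The fibrillar chain gene col1a2 changed by −0.05 ± 0.10. Of the matrix and fin fold list, 13 of 56 tested genes rose and 3 fell. The actinodin genes, which make the fibres of the fin fold, moved together: and2 had 311 to 437 CPM (median 368) at 48 hpf, against 146 to 237 CPM (median 196) at 36 hpf. and2 values at 48 hpf lay above all those at 36 hpf, with a log2 change of 0.93 ± 0.10 (adjusted p = 3.11e-11). and3 and and1 rose by 0.67 and 0.41. postna, a periostin gene, rose by 1.98 ± 0.51.

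The epidermis list leaned downwards, with 18 falls and 7 rises among 65. anxa1c, an annexin gene of the outer skin layer, had 112 to 156 CPM (median 134) at 48 hpf, against 238 to 365 CPM (median 266) at 36 hpf. anxa1c fell by 1.12 ± 0.11 on the log2 scale (adjusted p = 1.78e-12), with 9 of 9 embryos below the 36 hpf range. The keratins split: krt4, krt8 and krt97 fell by 0.37, 0.61 and 0.87, whereas krt15, krtt1c19e and krt91 rose by 1.51, 1.12 and 0.97. krtt1c19e, which marks basal keratinocytes, had a median of 1294 CPM at 48 hpf, against 688 CPM at 36 hpf (log2 change 1.12 ± 0.25). Keratin genes are close copies, so single values are uncertain. Of the mucous cell genes, muc5.1 rose, at 12.7 to 27.6 CPM (median 23.6) at 48 hpf, against 2.35 to 14.5 CPM (median 9.32) at 36 hpf. muc5.1 rose by 1.26 ± 0.25 on the log2 scale (adjusted p = 0.000141), with 8 of 9 embryos above the 36 hpf range. The ammonia channel gene rhbg of ionocytes rose by 1.54 ± 0.19, while foxi3b, the factor that specifies ionocytes, changed by −0.21 ± 0.24 and did not pass. Over the ionocyte and mucous cell list 4 of 35 tested genes rose and 4 fell.

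Hatching gland transcripts were lower in every 48 hpf embryo. The list summed to 2816 to 4750 CPM (median 3871) at 48 hpf, against 9125 to 14240 CPM (median 10260) at 36 hpf, although 3 of 14 tested members passed the test and these carried most of the sum. ctslb, a cathepsin L gene of the gland, had 781 to 1828 CPM (median 1351) at 48 hpf, against 4701 to 7473 CPM (median 4942) at 36 hpf. ctslb values at 48 hpf lay below all those at 36 hpf, with a log2 change of −2.04 ± 0.17 (adjusted p = 1.03e-12). he1.2, a hatching enzyme gene, had 310.4 to 682 CPM (median 478) at 48 hpf, against 1557 to 2300 CPM (median 1856) at 36 hpf. he1.2 fell by 1.99 ± 0.13 on the log2 scale (adjusted p = 1.46e-17), with 9 of 9 embryos below the 36 hpf range. Its near copy he1.1 had a median of 700.2 CPM at 48 hpf, against 2114 CPM at 36 hpf (log2 change −1.49 ± 0.14).

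Among 9 tested globin genes hbbe3 alone passed. Other embryonic globin genes were abundant at both ages: hbbe1.1 had 2913 to 5250 CPM (median 3372) at 48 hpf, against 2993 to 4771 CPM (median 3354) at 36 hpf. hbbe1.1 changed by 0.07 ± 0.19 on the log2 scale (adjusted p = 0.876), and the groups overlapped. hbbe1.2 had a median of 3562 CPM at 48 hpf, against 3711 CPM at 36 hpf (log2 change −0.01 ± 0.17). hbae5 changed by −0.78 ± 0.29 (adjusted p = 0.0576) and passed under 10 of 27 alternatives. Globin genes lie in clusters of similar copies, so their reads could be divided. Red cell and haem synthesis genes fell in 11 and rose in 1 of 39 tested. The haem pathway enzymes cpox and urod and the biliverdin reductase gene blvrb changed by −0.90, −1.29 and −0.72, and slc4a1a, the anion exchanger of the red cell membrane, had a median of 60.8 CPM at 48 hpf, against 95.1 CPM at 36 hpf (log2 change −0.64 ± 0.12). The erythroid master factor gene gata1a changed by −1.23 ± 0.28. alas2, the first enzyme of erythroid haem synthesis, had 41.1 to 88.8 CPM (median 59.22) at 48 hpf, against 43.4 to 95.1 CPM (median 66.7) at 36 hpf and did not pass. alas2 changed by −0.06 ± 0.13 on the log2 scale (adjusted p = 0.832), and the groups overlapped. rhag, an ammonia channel gene of red cells, rose by 0.48 ± 0.12.

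Myeloid and endothelial lists lay near the shares over all genes. In these lists 3 of 36 myeloid genes rose and 2 fell, and 2 of 39 endothelial genes rose and 4 fell, 2 each way without embryo 9. The neutrophil genes lyz and mpx changed by −0.21 ± 0.22 and −0.33 ± 0.30, neither passing. ccl34b.1, a chemokine gene of microglia and macrophages, had 4.80 to 12.4 CPM (median 8.84) at 48 hpf, against 0.213 to 3.88 CPM (median 2.296) at 36 hpf. ccl34b.1 rose by 2.23 ± 0.42 on the log2 scale (adjusted p = 4.86e-05), with 9 of 9 embryos above the 36 hpf range. plvapb, of fenestrated vessels, had a median of 38.3 CPM at 48 hpf, against 24.7 CPM at 36 hpf (log2 change 0.65 ± 0.14), while cxcr4a, a chemokine receptor gene, had a median of 7.51 CPM at 48 hpf, against 17.6 CPM at 36 hpf (log2 change −0.94 ± 0.21). cdh5, which encodes the junction protein of all endothelium, changed by −0.22 ± 0.15.

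Liver and yolk genes mostly fell where they moved. Of 55 tested liver and plasma protein genes 11 fell and 6 rose, and of 39 tested yolk syncytial layer and lipoprotein genes 9 fell and 3 rose. afp4, an abundant secreted protein gene, had 1904 to 2746 CPM (median 2468) at 48 hpf, against 3805 to 6705 CPM (median 5047) at 36 hpf. afp4 was separate between the ages, every 48 hpf embryo lying below, at a log2 change of −1.09 ± 0.16 (adjusted p = 2.05e-06). apoeb, an apolipoprotein E gene, had a median of 1320 CPM at 48 hpf, against 2368 CPM at 36 hpf (log2 change −0.76 ± 0.10). The plasma protein genes c3a.1, kng1 and fetub changed by −0.57, −0.88 and −0.64. apoa1b, an apolipoprotein A-I gene, did not pass the test at 3807 to 5226 CPM (median 4606) at 48 hpf, against 3835 to 5316 CPM (median 4562) at 36 hpf. apoa1b changed by 0.00 ± 0.08 on the log2 scale (adjusted p = 0.987), and the groups overlapped. apoa2 rose by 0.27 ± 0.07. Against these, rbp2b, a retinol-binding protein gene, had 58.4 to 108 CPM (median 83.6) at 48 hpf, against 6.82 to 32.5 CPM (median 18.3) at 36 hpf. rbp2b rose by 2.08 ± 0.28 on the log2 scale (adjusted p = 3.26e-07), with 9 of 9 embryos above the 36 hpf range. fabp10a, the fatty acid-binding protein that defines hepatocytes, had 0 to 5.64 CPM (median 2.55) at 48 hpf, against 0 to 1.24 CPM (median 0) at 36 hpf. fabp10a rose by 3.31 ± 0.89 on the log2 scale (adjusted p = 0.00511), with 8 of 9 embryos above the 36 hpf range.

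Endocrine genes rose in 6 of 21 tested members and fell in none. ins, the insulin gene of beta cells, had 31.5 to 48.1 CPM (median 39.98) at 48 hpf, against 4.47 to 26.1 CPM (median 12.3) at 36 hpf. ins values at 48 hpf lay above all those at 36 hpf, with a log2 change of 1.49 ± 0.24 (adjusted p = 5.17e-06). gcga, a glucagon gene of alpha cells, had a median of 7.67 CPM at 48 hpf, against 2.401 CPM at 36 hpf (log2 change 1.41 ± 0.35). scg5 and scg3, of secretory granules, and isl1 rose by 1.05, 0.97 and 0.91, and all 3 are also expressed by neurons. The rise of neurod1, which also stood in the photoreceptor and pineal list, was among the 6 as well. Of 29 exocrine entries 11 were tested, and the digestive enzyme gene prss1 alone passed. It had 1.41 to 9.12 CPM (median 2.23) at 48 hpf, against 0 to 1.304 CPM (median 0.507) at 36 hpf. prss1 rose by 2.35 ± 0.70 on the log2 scale (adjusted p = 0.0126), with 9 of 9 embryos above the 36 hpf range, and its adjusted p was 0.0551 without embryo 2 of the 48 hpf group. In the intestine list 3 of 29 rose and 7 fell: cldn15la, a gut tight junction gene, had 8.26 to 16.2 CPM (median 10.02) at 48 hpf, against 0.559 to 5.01 CPM (median 1.98) at 36 hpf. cldn15la was separate between the ages, every 48 hpf embryo lying above, at a log2 change of 2.23 ± 0.46 (adjusted p = 0.0003). fabp2, a fatty acid-binding protein gene of the same list, had 126 to 184 CPM (median 144) at 48 hpf, against 128 to 388 CPM (median 257) at 36 hpf. fabp2 fell by 0.69 ± 0.20 on the log2 scale (adjusted p = 0.0158), with 1 of 9 embryos below the 36 hpf range, a call lost without embryo 4 of the 36 hpf group. In the kidney list 2 rose and 4 fell of 32, among them cdh17 of the pronephric duct at a median of 14.2 CPM at 48 hpf, against 23.5 CPM at 36 hpf (log2 change −0.79 ± 0.20).

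Pigment cell genes went both ways, 6 up and 6 down of 41 tested. pnp4a and pnp5a, of iridophores, rose by 0.72 and 0.65, while mitfa, which specifies melanophores, had 0.955 to 9.41 CPM (median 5.11) at 48 hpf, against 4.05 to 20.6 CPM (median 8.64) at 36 hpf. mitfa fell by 0.87 ± 0.28 on the log2 scale (adjusted p = 0.0255), with 1 of 9 embryos below the 36 hpf range. gch2, of xanthophores, had a median of 416 CPM at 48 hpf, against 558 CPM at 36 hpf (log2 change −0.40 ± 0.10). The melanin synthesis gene tyrp1b changed by −0.06 ± 0.23. Genes of the tailbud and of somite segmentation fell in 7 and rose in 1 of 40. The falls include dld and her15.1, which also stand in the neural progenitor list. lin28a, which blocks maturation of let-7 microRNAs, had 10.48 to 26.1 CPM (median 16.2) at 48 hpf, against 31.1 to 73.4 CPM (median 41.3) at 36 hpf. lin28a was separate between the ages, every 48 hpf embryo lying below, at a log2 change of −1.38 ± 0.17 (adjusted p = 2.74e-09). Of 30 tested notochord and floor plate genes 2 rose and 1 fell. Of 38 tested Hox genes 3 rose and 4 fell: hoxb5a had a median of 33.4 CPM at 48 hpf, against 17.3 CPM at 36 hpf (log2 change 0.91 ± 0.20), and hoxb1b had 8.03 to 20.6 CPM (median 18.8) at 48 hpf, against 18.7 to 38.8 CPM (median 28.2) at 36 hpf. hoxb1b fell by 0.71 ± 0.18 on the log2 scale (adjusted p = 0.00315), with 4 of 9 embryos below the 36 hpf range.

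Clock genes rose in 13 and fell in 2 of 38 tested members, and 11 rose without embryo 9. The ages lie 12 h apart, so age and time of day cannot be told apart here. ciarta, a repressor of the clock, had 29.4 to 37.2 CPM (median 33.7) at 48 hpf, against 9.36 to 22.8 CPM (median 14.8) at 36 hpf. ciarta rose by 1.11 ± 0.15 on the log2 scale (adjusted p = 2.00e-08), with 9 of 9 embryos above the 36 hpf range. tefa, a PAR-type transcription factor under clock control, had 30.5 to 61.8 CPM (median 41.4) at 48 hpf, against 16.4 to 25.6 CPM (median 20.3) at 36 hpf. tefa was separate between the ages, every 48 hpf embryo lying above, at a log2 change of 1.02 ± 0.15 (adjusted p = 4.31e-07). The nuclear receptor genes roraa and nr1d2b rose by 1.78 and 1.498, and the period genes per1b, per2 and per3 by 1.43, 1.38 and 0.51. wee1, a mitotic kinase gene under clock control, fell by 0.69 ± 0.16.

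Chaperone genes rose in 13 and fell in 6 of 58. Those that rose included chaperones of the endoplasmic reticulum: dnajb11 had a median of 52.9 CPM at 48 hpf, against 29.5 CPM at 36 hpf (log2 change 0.93 ± 0.12), and calr, hspa5 and hsp90b1 rose by 0.73, 0.71 and 0.70. The cytosolic hsp90ab1 and hsp70.3 fell by 0.42 and 1.49, and hspa8 changed by −0.14 ± 0.19. Outside the list, the heat shock cognate gene hsc70 rose by 1.82 ± 0.42, with 9 of 9 embryos above the 36 hpf range. Of the immediate early and stress hormone list 3 rose and 4 fell of 40. fkbp5, a cochaperone of the glucocorticoid receptor that glucocorticoids induce, had 5.601 to 28.7 CPM (median 13.3) at 48 hpf, against 0.176 to 4.097 CPM (median 1.41) at 36 hpf. fkbp5 values at 48 hpf lay above all those at 36 hpf, with a log2 change of 2.95 ± 0.45 (adjusted p = 2.71e-06). btg2, an antiproliferative gene, had a median of 56.0 CPM at 48 hpf, against 106 CPM at 36 hpf (log2 change −0.88 ± 0.13), and dusp1 fell by 0.79 ± 0.13.

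The change in the second 12 h was next set against that in the first, from 24 to 36 hpf. Both use the 36 hpf embryos, so a gene that is high or low in those alone enters both. The 2 changes differed in 559 genes (3.40%), the second being more positive in 124 (0.755%) and more negative in 435 (2.65%). The clock genes per1b and tefa were low at 36 hpf: per1b had 11.99 to 31.5 CPM (median 17.5) at 24 hpf, 1.49 to 5.88 CPM (median 3.79) at 36 hpf and 5.81 to 15.99 CPM (median 9.88) at 48 hpf (difference of log2 changes 3.76 ± 0.50, adjusted p = 1.74e-07), and tefa had 38.1 to 64.0 CPM (median 45.9) at 24 hpf, 16.4 to 25.6 CPM (median 20.3) at 36 hpf and 30.5 to 61.8 CPM (median 41.4) at 48 hpf (2.27 ± 0.29, adjusted p = 3.77e-08). pcdh8, a protocadherin gene of the paraxial mesoderm and brain, had 6.06 to 24.8 CPM (median 11.2) at 24 hpf, 0.176 to 4.48 CPM (median 1.73) at 36 hpf and 4.24 to 15.3 CPM (median 11.4) at 48 hpf (5.37 ± 0.94, adjusted p = 0.000183). ifitm5, s100a10a and ampd1 had medians of at most 1.64 CPM at both earlier ages, with differences of 4.71, 4.49 and 4.15.

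In other genes the second change was the more negative of the 2. hbbe3 had 1120 to 1913 CPM (median 1660) at 24 hpf, 2205 to 3138 CPM (median 2553) at 36 hpf and 448 to 940.1 CPM (median 632) at 48 hpf (−2.67 ± 0.20, adjusted p = 2.99e-16). atoh7 had 0.226 to 15.3 CPM (median 2.37) at 24 hpf, 4.26 to 55.8 CPM (median 36.1) at 36 hpf and 9.99 to 28.2 CPM (median 15.8) at 48 hpf (−3.88 ± 0.86, adjusted p = 0.00445). egln3 had 0 to 5.68 CPM (median 2.62) at 24 hpf, 1.49 to 36.2 CPM (median 8.79) at 36 hpf and 1.57 to 8.596 CPM (median 2.84) at 48 hpf (−3.91 ± 0.95, adjusted p = 0.0107), which was 0.0639 at most when 1 embryo was left out. cox4i1l, a cytochrome oxidase subunit gene, had 0 to 2.08 CPM (median 0.323) at 24 hpf, 0.683 to 26.3 CPM (median 8.81) at 36 hpf and 0.637 to 11.03 CPM (median 3.40) at 48 hpf (−4.93 ± 0.95, adjusted p = 0.000561). The called differences of atoh7, egln3, cox4i1l and ifitm5 were lost with limma voom, and that of ampd1 against a 1.5-fold change. In atoh7, egln3 and cox4i1l the 36 hpf embryos spread more widely than those of either other age.

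**Figure D4:**
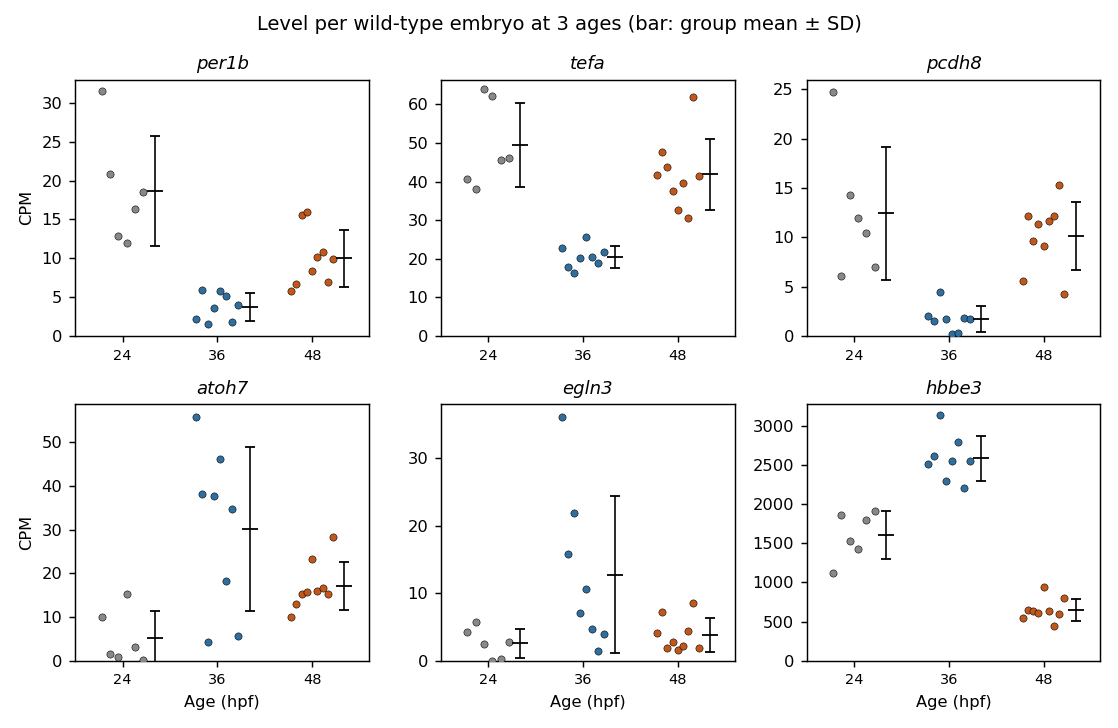
CPM in each noc2l +/+ embryo at 24 hpf (6), 36 hpf (8) and 48 hpf (9), with the group mean and SD as bars. The clock genes per1b and tefa and the protocadherin gene pcdh8 have their lowest mean at 36 hpf, and hbbe3 its highest, while the 36 hpf embryos of atoh7 and egln3 scatter widely.

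The wild-type change was last compared with that of noc2l -/- embryos over the same hours, which shares no library with it. Mutants changed 1645 genes (10.0%) with age, 780 (4.75%) upwards and 865 (5.26%) downwards. Of the genes called in wild types, 1216 were also called in mutants in the same direction and 0 in the opposite one, which is 51.0% of the wild-type calls and 73.9% of the mutant calls. The change itself differed between the genotypes in 9 genes (0.0548%), more positive in wild types in 4 (0.0243%) and more negative in 5 (0.0304%). noc2l had 2.69 to 6.99 CPM (median 3.75) in 48 hpf mutants and 2.69 to 10.6 CPM (median 5.08) in 36 hpf mutants, with medians below those of wild types and ranges that overlapped them. Where its reads lie relative to the lesion is not stated, so its level checks no label.

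Of the 4 genes that rose more in wild types, 2 were crystallin genes, and the other 2 were sb:cb37 and si:ch211-255g12.6, of no known role here, with differences of 1.06 and 6.04. crygm2d11, which had 27.7 to 131 CPM (median 59.4) in 48 hpf wild types and 0.426 to 4.35 CPM (median 2.07) in 36 hpf wild types, had 1.84 to 10.04 CPM (median 4.13) in 48 hpf mutants and 0 to 2.36 CPM (median 1.24) in 36 hpf mutants (difference of log2 changes 3.25 ± 0.53, adjusted p = 0.000542). crygm2d15 had 4.82 to 26.6 CPM (median 22.4) in 48 hpf mutants and 0.877 to 9.55 CPM (median 3.08) in 36 hpf mutants in turn (2.92 ± 0.59, adjusted p = 0.023). The adjusted p of crygm2d15 reached 0.0532 when 1 wild-type embryo was left out, with the call kept in 11 of 17 such fits and in 5 of 10 other alternatives, and crygm2d11 lost its call with limma voom. Over the crystallin list the median log2 change was 2.37 in wild types, against 1.52 in mutants. Over the neuron list it was 0.61 in wild types, against 0.67 in mutants, over the ribosomal protein list −0.44 in wild types, against −0.30 in mutants, and over the cell cycle list −0.62 in wild types, against −0.55 in mutants. hbbe3 fell further in wild types, a call kept under all 27 alternatives: mutants had 1280 to 1700 CPM (median 1552) at 48 hpf and 1926 to 2492 CPM (median 2065) at 36 hpf (−1.47 ± 0.16, adjusted p = 4.59e-09), and the 48 hpf embryos of the 2 genotypes did not overlap.

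In the other 4 genes the change of wild types did not pass the test, while mutants rose. tcap, the titin cap of the muscle Z-disc, had 2.49 to 7.82 CPM (median 4.41) in 48 hpf wild types and 1.404 to 6.54 CPM (median 2.87) in 36 hpf wild types, against 7.79 to 186 CPM (median 82.3) in 48 hpf mutants and 2.47 to 8.09 CPM (median 5.08) in 36 hpf mutants (−3.76 ± 0.60, adjusted p = 0.000542). hspb11, a small heat shock protein gene, had 4.24 to 19.1 CPM (median 8.71) in 48 hpf wild types and 6.06 to 14.8 CPM (median 8.63) in 36 hpf wild types, against 7.79 to 252 CPM (median 110.5) in 48 hpf mutants and 8.40 to 16.9 CPM (median 11.5) in 36 hpf mutants (−3.08 ± 0.57, adjusted p = 0.00602). flnca, a filamin C gene, differed by −2.57 ± 0.40, adjusted p = 0.000332, and pth1a, a parathyroid hormone gene, by −4.25 ± 0.80, adjusted p = 0.00551. The wild-type log2 change of pth1a ran from −1.70 to −0.83 over the alternatives that tested it. It passed as a fall in edgeR without embryo 5 of the 36 hpf group (adjusted p = 0.0495). Not all 7 mutants at 48 hpf were high: 2 lay within the 48 hpf wild-type range in hspb11 and pth1a, 1 in tcap and 0 in flnca. All 4 calls were lost with limma voom and with the replicate number as a block, those of hspb11 and pth1a also with the libraries of these groups alone, and that of pth1a also with DESeq2.

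**Figure D5:**
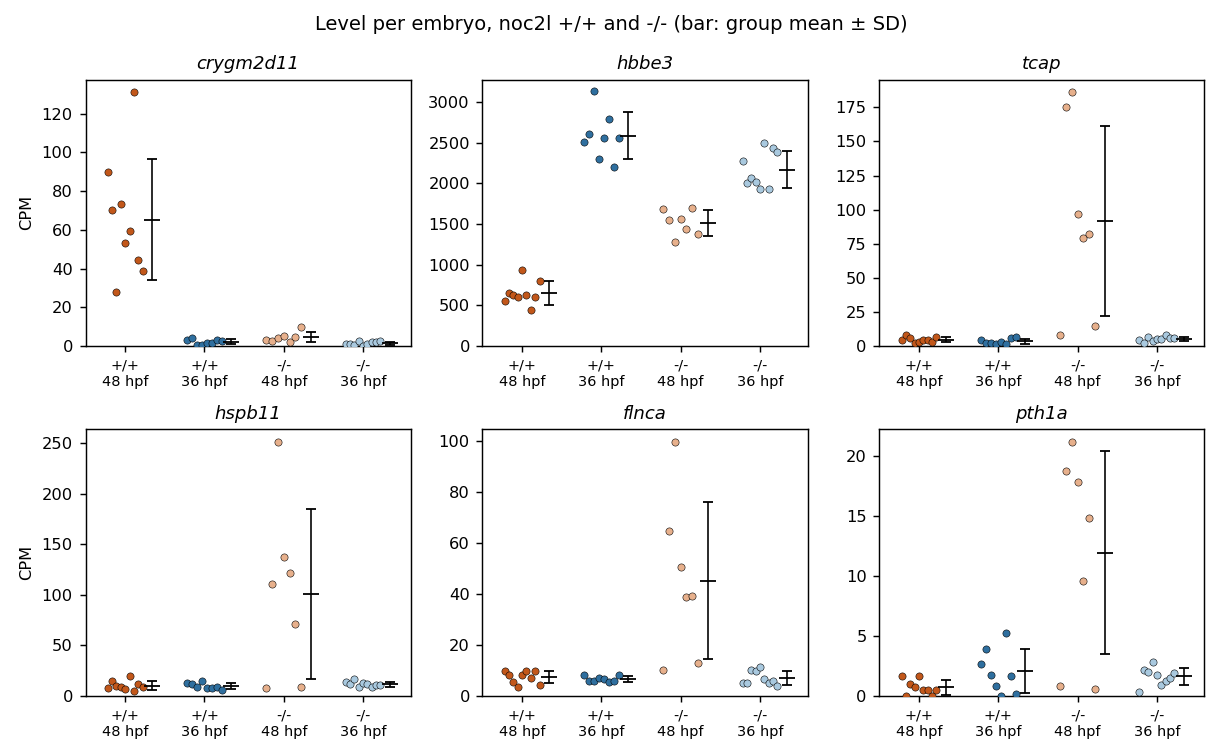
CPM in each embryo for 6 of the 9 genes whose change with age differed between the genotypes, with noc2l +/+ left of noc2l -/- and 48 hpf left of 36 hpf, and bars for the mean and SD. In wild types crygm2d11 rose and hbbe3 fell more than in mutants. The wild-type changes of tcap, hspb11, flnca and pth1a did not pass the test.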

How the data were processed

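Single-embryo Lasy-Seq libraries gave 3′ end counts. The authors deposited expected counts per gene symbol, whole in all but 2 values and rounded here. Salmon, fastp 0.21.0, BWA 0.7.17-r1188 and the build GRCz11 appear in the submitters' processing notes, without settings. Groups came from the genotype and age in the titles.

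Of 31658 entries, 3197 had no count, and 16431 passed edgeR's filter (10 counts, groups known), which kept 99.81% of counts. A single edgeR 4.0.16 quasi-likelihood model (R 4.3.3, TMM scaling, robust, Benjamini-Hochberg adjustment, threshold 0.05) covered all 48 libraries in 6 groups, so they share 1 estimate of spread, a common biological coefficient of variation of 31.1%. Contrasts were 48 minus 36 hpf in wild types, this change minus that of mutants, and this change minus that from 24 to 36 hpf. Standard errors come from the F statistic. CPM are scaled by TMM factors. The model was tested on simulated data. Alternatives used RLE and upper-quartile scaling, no filter, DESeq2 1.42.0, limma 3.58.1 (voom), the libraries of a contrast alone, that fit with the replicate number as a block, 6 embryos a group, a test against a 1.5-fold change, no shallow libraries, and each wild-type embryo left out in turn. Permutation tests used scipy 1.17.1. Counting intervals (exact, 95%) and floors cover counting error only, since no molecular identifiers are stated.

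The members, the lists and the tests were chosen with earlier results of these data known. Named genes are noc2l, the 12 largest called changes each way of at least 10 CPM, the defining gene of each list and its 3 members of smallest p with at least 5 CPM, the 4 largest called differences each way, and the 3 smallest p-values each way, leaving clone names out of the ranked changes. Chosen after their values were seen were acta1a, apoa2, bhlhe23, chata, ckma, col6a1, col6a2, col6a3, crygm2d17, desma, dnmt1, elavl4, entpd5a, fabp7a, fetub, foxe3, gap43, gart, gata1a, gcga, gch2, gfap, gria2b, hbbe1.2, hdc, hsc70, hsp70.3, hsp90ab1, hsp90b1, hspa5, hspb1, isl1, krt8, krt91, krt97, krtt1c19e, lyz, mitfa, mpx, mpz, nes, notch1a, nppa, nr1d2b, nr2e3, olig1, olig4, oxt, per2, per3, pmchl, pnp4a, pnp5a, postna, pvalb2, rhag, rho, rpl22l1, rrm1, sagb, scg3, snap25b, sox19a, stm, tnni2b.2, tnnt3b, ttn.1, tyrp1b, urod and wee1. Labels do not say that replicate numbers mark a shared clutch or day, and same-numbered embryos did not deviate together, so the main model has no block. Within the 48 hpf wild types (36 pairs) and within the 36 hpf wild types (28 pairs), no 2 libraries agreed within sampling noise. Pairs across groups and in the other groups were not compared. Sequences and promoter motifs were not analysed here. The values of 1 named gene are not reported here.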

Additional observations from a re-analysis of the deposited data

Results flagged for a closer look

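In 40 of 392 groups of values (chance gives about 1 in 20), 1 embryo lay far from the rest of its group. Values are CPM, with the group median in parentheses. Embryo 9 at 48 hpf, the shallowest, supplied 18 of them: adcyap1b 57.4 (84.3), calr 55.5 (94.3), ccnd1 144 (92.1), col9a1a 10.35 (31.2), cox8b 1.41 (9.58), eef2b 677 (864), eif3k 63.1 (94.3), fabp10a 0 (2.55), fgfbp2b 33.4 (60.4), gapdhs 183 (345), gnb3a 0.471 (15.5), gng3 93.2 (151), mt-co1 4079 (5694), mt-nd5 111 (171), rplp0 1901 (2790), rtn1b 67.8 (123), scg5 21.6 (46.03) and shmt1 25.4 (43.6). Only ccnd1 was high there, and the part of depth in these values was not tested. At 48 hpf the others were hbbe2 at 308 (185) in embryo 5, hoxb1b 8.03 (18.8) and prss1 9.12 (2.23) in embryo 2 and ncl 183 (234) in embryo 7.

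At 36 hpf, embryo 3 stood apart in 9 genes: crygm2d16 2.77 (29.5), lin28a 73.4 (41.3), muc5.1 2.35 (9.32), plp1a 123 (162), rbp2b 6.82 (18.3), scg5 14.9 (20.5), snrpd1 348 (288), sox3 232 (203) and tnni2b.1 751 (469). Embryo 8 did so in 5: col9a1a 3.67 (8.34), hoxc1a 20.7 (32.9), mybpc3 24.6 (40.7), ncl 395 (296) and osr1 1.59 (7.84). Embryo 4 did so in col10a1a 5.46 (2.32) and col1a2 154 (220.5), and embryo 1 in matn1 0.148 (0) and sst1.1 11.3 (3.76), where matn1 is a single count. Embryo 3 was also the most distant from 48 hpf embryos on the first principal component, at −55.8.

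The log2 change from 36 to 48 hpf differed between wild types and mutants in 7 named genes by the test of the difference in edgeR. Wild-type minus mutant change was 3.25 for crygm2d11, 2.92 for crygm2d15, −1.47 for hbbe3, −2.57 for flnca, −3.08 for hspb11, −3.76 for tcap and −4.25 for pth1a.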

How the results depend on the processing

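Under the alternatives other than the 1.5-fold test, the wild-type comparison called 1711 to 2867 genes, between 747 and 1446 of them higher and 964 to 1451 lower, and leaving out 1 embryo gave 2116 to 2417, 929 to 1080 and 1185 to 1337. Against a 1.5-fold change, 388 were called, 272 higher and 116 lower. For the difference from mutants (9 called, 4 higher and 5 lower), DESeq2 called 14 with 7 higher, limma voom 4 with 1 higher and 3 lower, 6 embryos a group 2 higher, the 1.5-fold test 2 higher, and leaving out 1 embryo 7 to 12, with 2 to 6 higher and 5 to 6 lower. For the difference from the change between 24 and 36 hpf (559 called), the 1.5-fold test gave 110, 32 and 78, DESeq2 206 higher, and leaving out 1 embryo 433 to 613. With the replicate number as a block, 2867 genes were called in the wild-type comparison and 3 had a more negative change in wild types than in mutants. Correlations of same-numbered deviations were −0.028 to 0.029 (0 of 8 over 0.1, 1 of 8 embryos best with its own number).

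Of 160 called named genes, 84 stayed called under every alternative, 141 under all but the 1.5-fold test and 148 when any 1 embryo was left out. Of 5175 pairs of a named gene and an alternative, 34 changed sign, in 6 genes whose change was not called. alas2 became 0.0077 with 6 embryos a group and −0.15 to 0.015 on leaving out 1 embryo. elavl3 became 0.00908 with RLE, 0.0088 with DESeq2, 0.0023 with voom, 0.043 with 6 embryos a group and −0.134 to 0.066 on leaving out 1 embryo. hspb11 became −0.059 with voom, −0.00566 with the replicate block and −0.17 to 0.146 on leaving out 1 embryo. Leaving out 1 embryo gave −0.042 to 0.0246 for apoa1b, −0.074 to 0.431 for fosab and −0.012 to 0.125 for hbbe1.1. List medians were compared under some of the alternatives only, where 181 moved by less than the spread between embryos and 3 by more. The causes were not tested. Genes near 1 CPM rest on few counts per embryo, and changes under 1.5-fold pass or fail with the threshold.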
